A study of Mus musculus with 14 samples.

Results

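The genes described here encode the voltage-gated and potassium ion channels of the cerebral cortex of mice with a cerebral venous sinus thrombosis (CVST), in which a clot blocks the large venous channels that carry blood out of the brain. They were all genes of the count table whose symbol marked a potassium channel subunit (Kcn), the pore subunit of a voltage-gated sodium channel (Scn) or the pore subunit of a voltage-gated calcium channel (Cacna1). The pattern matched 112 genes, and 110 remained after Kcnj8 and Kcnj10 were left out, among 55894 entries of the table. The 110 genes fell into 40 voltage-gated potassium channel subunits (Kv), 13 inward rectifiers (Kir), 14 two-pore-domain leak channels (K2P), 8 calcium- or sodium-activated potassium channels (KCa/KNa), 15 auxiliary potassium channel subunits, 10 sodium channels (Nav) and 10 calcium channels (Cav).

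RNA sequencing was done on 14 samples of cortical tissue of both hemispheres: 5 samples at 7 d after CVST, 5 samples at 2 d after CVST and 4 samples after a sham operation. The labels name no transgene, strain, sex or age, no drug treatment, no method of making the clot and no collection time of the sham samples. They number the samples within a group without stating that each is a separate mouse, so p-values measure the spread between samples. All values come from whole tissue, in which fewer cells of a type and less RNA per cell cannot be told apart.

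Ion channels set how neurons fire. Nav channels drive the upstroke of the action potential, Kv and KCa channels end it and set the firing pattern, Kir and K2P channels hold the resting potential, and Cav channels admit the calcium that triggers transmitter release. Kv and K2P channels share a selectivity filter, a short stretch of the pore loop that lets potassium pass and holds sodium back, which in most of them reads Gly-Tyr-Gly. The auxiliary subunits (Kcnab, Kcnip, Kcne, Kcnmb) alter the gating or surface number of the pores they join.

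Among the 93 channel genes tested, 3 passed the test in any comparison: Kcnk6 (ENSMUSG00000046410), Kcnq1 (ENSMUSG00000009545) and Kcng1 (ENSMUSG00000074575). Their pore codons are shown because they place all 3 among pore-forming subunits and show where the second pore of Kcnk6 departs from the common filter. The stretches are coding sequence of GENCODE vM21 transcripts on GRCm38, 5′ to 3′ on the coding strand, 51 bases each, and capitals mark the 3 codons of the filter. The deposited counts were made on mm39, so these positions do not carry over to them.
Kcnk6 first pore loop: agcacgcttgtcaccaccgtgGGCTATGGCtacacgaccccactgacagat
Kcnk6 second pore loop: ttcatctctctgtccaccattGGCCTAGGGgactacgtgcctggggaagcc
Kcnq1 pore loop: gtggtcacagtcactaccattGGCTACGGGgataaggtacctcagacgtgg
Kcng1 pore loop: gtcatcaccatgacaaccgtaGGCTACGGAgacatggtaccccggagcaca

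On GRCm38 the first pore loop of Kcnk6 lies on the minus strand at chr7:29225839-29232183 and is split by an intron, and the second lies within 1 exon at chr7:29225515-29225565. The Kcnq1 stretch lies on the plus strand at chr7:143184540-143191467, also split by an intron. The Kcng1 stretch lies within 1 exon on the minus strand at chr2:168262620-168262670. Codons for Gly-Tyr-Gly stood in the first pore of Kcnk6, in Kcnq1 and in Kcng1, whereas the second pore of Kcnk6 had a leucine codon in the middle. Anywhere in the reading frame, codons for Gly-Tyr-Gly were present in 61 of the 75 pore-forming potassium channel genes (81.3%), in none of the 10 Nav genes, none of the 10 Cav genes and none of the 15 auxiliary subunit genes, against 6.03% of all protein-coding genes.

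Between 14.7 and 20.8 M gene counts (M, mega) were recorded per sample, and channel genes took 0.571% to 0.737% of them. Of the 110 channel genes, 93 passed the filter on low counts and were tested. All 110 had at least 1 count in some sample. All 12 general neuron markers and all 12 markers of excitatory cortical neurons were detected in every sample, and markers of tissue outside the cortex were also present. Libraries within a group were not alike. The median of 16 microglia and macrophage markers lay 0.40 (log2) above the sham mean in CVST 7 d replicate 2, against 1.36 to 2.74 in the other CVST 7 d samples, and 0.16 above it in CVST 2 d replicate 5, against 1.18 to 1.85 in the other CVST 2 d samples. Markers of the striatum, which lies under the cortex, were high in CVST 7 d replicate 5, CVST 2 d replicate 5 and sham replicates 2 and 4, where the summed FPKM of 10 markers was 736.5 to 961.8, against 136.4 to 339.2 in the other samples, and none of the 10 was called in any comparison or at 0 in any sample. The summed FPKM of 9 choroid plexus markers, among them Kcnj13, was 61.6 to 241.8 at 7 d, 65.6 to 616.9 at 2 d and 52.2 to 1020 in sham samples, with none of the 9 called in any comparison and Otx2 at 0 in CVST 2 d replicate 3 and sham replicate 3. The summed FPKM of 10 hippocampus and thalamus markers was 48.0 to 104.6 at 7 d, 62.7 to 134.1 at 2 d and 48.5 to 88.7 in sham samples. None of these 10 was at 0 in any sample or called against sham. At 7 d against 2 d, 1 was called higher (10%, where 1.54% of all genes were). Results are also given without CVST 2 d replicate 5 and CVST 7 d replicate 2.

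Most of the 20 most abundant channel transcripts, per transcript length, had group means that lay close together. Kcnab2, a beta subunit that binds Kv1 channels, led with 124 ± 18.7 FPKM at 7 d, 133 ± 12.0 FPKM at 2 d and 122 ± 19.2 FPKM in sham samples (SD, n = 5, 5 and 4; FPKM, the authors' values scaled to transcript length and library size). Within their classes, Kcnj4 led among inward rectifiers, Kcnk1 among K2P channels, Kcnt1, a sodium-activated channel, among KCa/KNa channels, Scn2a among Nav channels and Cacna1a, the pore of P/Q-type calcium channels, among Cav channels. Scn2a averaged 35 ± 5.31 FPKM at 7 d, 31.2 ± 6.04 FPKM at 2 d and 36.5 ± 2.97 FPKM in sham samples. Cacna1a averaged 33.3 ± 3.88 FPKM at 7 d, 33.0 ± 6.71 FPKM at 2 d and 31.4 ± 5.30 FPKM in sham samples. All 20 of the most abundant channel genes had a fitted fold within 1.5 at 7 d against sham and 18 of 20 (90%) at 2 d against sham. Of all genes tested, 86.4% at 7 d and 85.2% at 2 d did. The 95% intervals of 19 of the 20 at 7 d, and of 18 of the 20 at 2 d, lay within a 2-fold change in either direction, where those of 76.5% and 75.6% of all genes did.

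**Figure D1:**
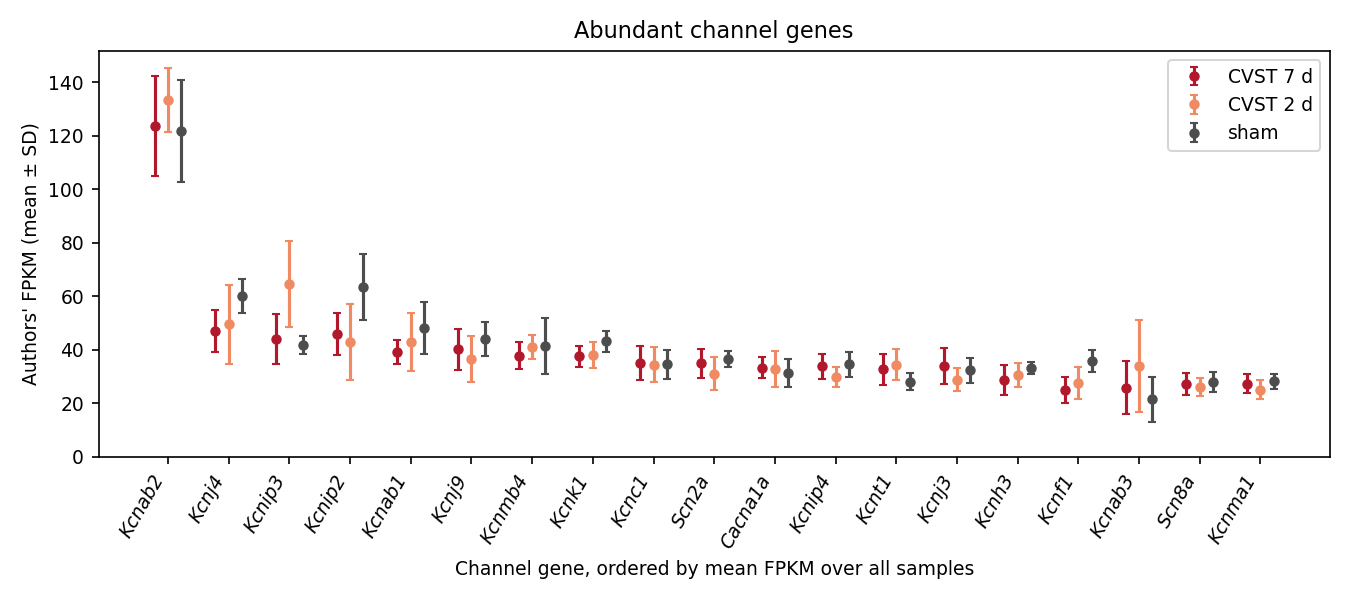
Mean level of 19 of the 20 most abundant channel genes in the authors' FPKM (y axis; points are group means, bars SD, n = 5, 5 and 4), with CVST 7 d, CVST 2 d and sham side by side for each gene (x axis, ordered by mean FPKM over all samples). Kcnab2 stands above the rest at 122 to 133 FPKM, and Kcnip3 and Kcnip2 show the widest gaps of the next genes (44.0 and 46.0 FPKM at 7 d, 64.7 and 43.1 FPKM at 2 d, 41.8 and 63.4 FPKM in sham samples).

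At 7 d against sham, 1 of 93 channel genes was called higher (1.08%) and 1 lower (1.08%) at an adjusted p under 0.05 (edgeR's quasi-likelihood test, Benjamini-Hochberg adjustment over all genes), where 3.61% of all 16918 genes tested were called higher and 0.833% lower (4.44% in either direction). At 2 d against sham, 2 were called higher (2.15%) and 1 lower (1.08%), where 2.98% of all genes were called higher and 0.969% lower (3.95% in either direction). At 7 d against 2 d, none was called higher and 1 lower (1.08%), where 1.54% and 1.25% of all genes were called (2.80% in either direction). At an unadjusted p under 0.05, 3 channel genes lay higher and 9 lower at 7 d against sham, 4 higher and 14 lower at 2 d against sham, and 6 higher and 7 lower at 7 d against 2 d. The shares of all genes at that unadjusted level were 11.7% and 7.91%, then 12.3% and 9.38%, then 10.3% and 10.6%.

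The median channel gene lay slightly below sham at both times. Its log2 fold change was -0.12 at 7 d and -0.19 at 2 d, where the median of all genes was -0.01 at both times, and 68 of 93 channel genes at 7 d and 62 of 93 at 2 d had a negative fold. Both comparisons share the sham samples. Between 7 d and 2 d the median was -0.02, with 50 of 93 negative. The median difference of a sample from the sham mean ranged from -0.35 to 0.06 at 7 d, from -0.29 to -0.03 at 2 d and from -0.13 to 0.11 in sham samples, so the groups overlapped on this measure. The lowest sample was CVST 7 d replicate 5, which also had the lowest median of general neuron markers (-0.36) and the highest of microglia and macrophage markers (2.74). The 10 striatal markers also lay below sham on the median, at -0.89 at 7 d and -0.97 at 2 d, and all 10 had a negative fold at both times with none called. The part of these markers in the channel values was not tested. By class, the median at 2 d was -0.31 for Kir, -0.30 for Nav, -0.19 for Kv, -0.15 for auxiliary subunits, -0.12 for Cav, -0.11 for KCa/KNa and 0.10 for K2P channels. At 7 d it was -0.20 for Cav, -0.16 for Kir and auxiliary subunits, -0.13 for Kv, -0.08 for K2P and Nav and -0.03 for KCa/KNa channels.

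**Figure D2:**
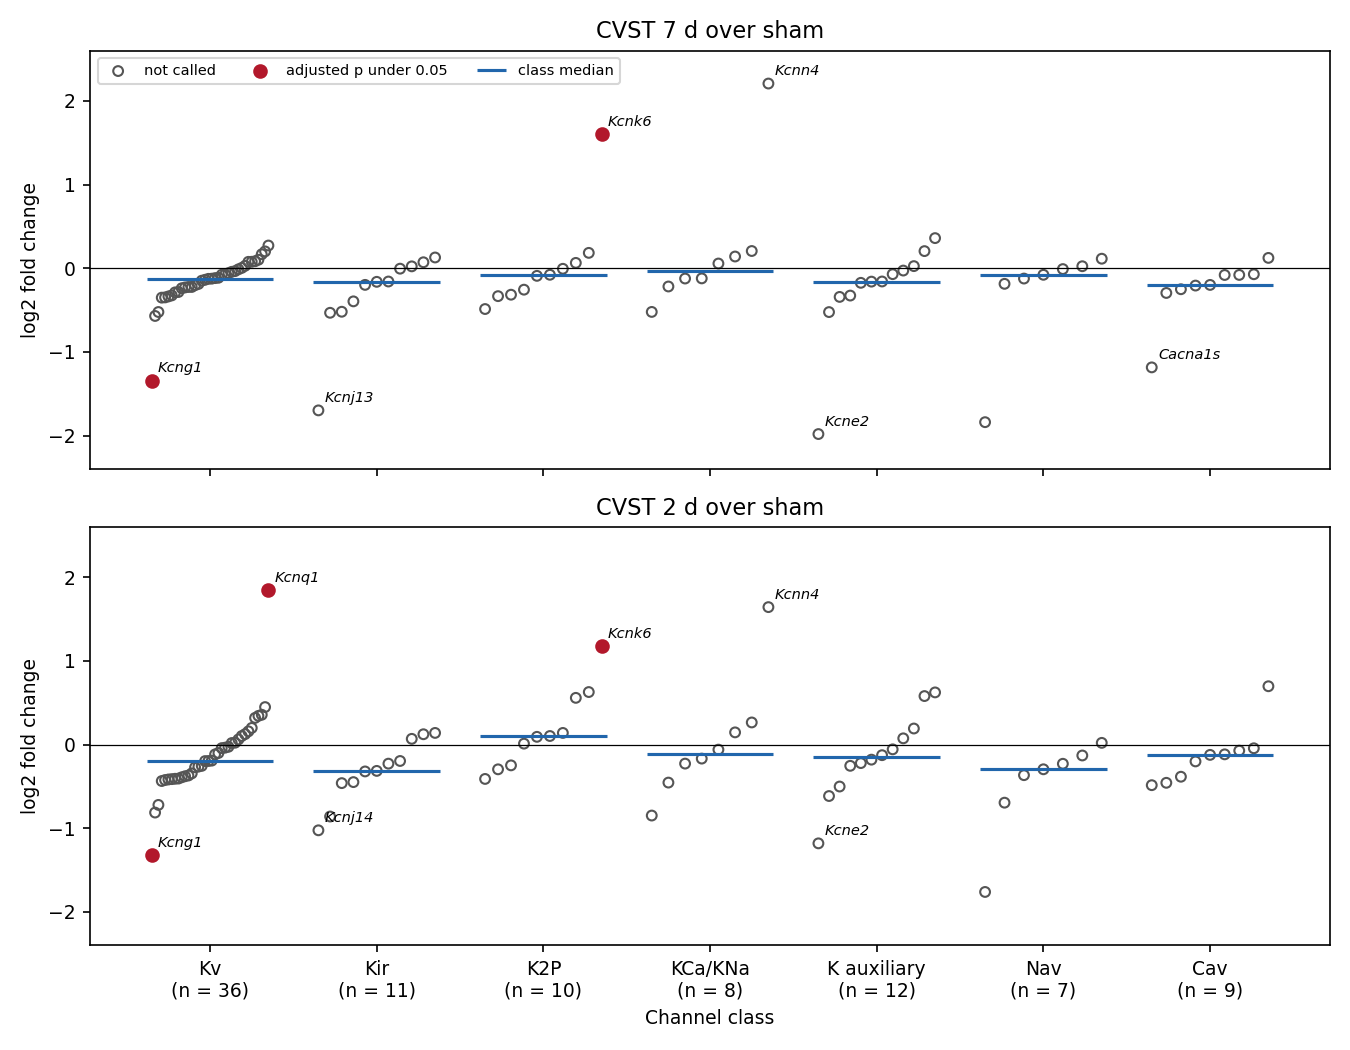
Fitted log2 fold change (y axis) of each of the 93 channel genes tested, by channel class (x axis), for CVST 7 d over sham above and CVST 2 d over sham below; red points had an adjusted p under 0.05 and lines mark class medians. Most points lie close to 0, Kcnk6 and Kcng1 are called at both times, and Kcnq1 is called at 2 d.

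Kcnk6 encodes TWIK-2, a K2P leak channel that in macrophages carries potassium efflux upstream of the NLRP3 inflammasome. It rose at both times. At 7 d the samples had 9.55, 6.21, 7.16, 15.6 and 10.1 CPM (TMM-scaled counts). At 2 d they had 7.39, 8.72, 6.09, 8.14 and 5.85 CPM, and sham samples had 3.65, 3.82, 2.65 and 2.69 CPM. Every CVST sample lay above every sham sample. The log2 fold change was 1.61 ± 0.253 (SE; adjusted p = 0.00714) at 7 d and 1.18 ± 0.251 (adjusted p = 0.0235) at 2 d. The difference of 7 d from 2 d, 0.43 ± 0.224, did not pass (adjusted p = 0.296, 95% interval -0.05 to 0.91). The call at 7 d held without each single sample (adjusted p 0.00118 to 0.0396). The call at 2 d was lost without sham replicate 2 (adjusted p = 0.064), sham replicate 3 (0.0886), sham replicate 4 (0.0803) or CVST 2 d replicate 2 (0.0559), and held without CVST 2 d replicate 5 (log2 fold change 1.25, adjusted p = 0.00994).

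Most microglia and macrophage markers also lay above sham. Of the 16 markers, 14 were called higher at 7 d and 4 at 2 d (87.5% and 25%, where 3.61% and 2.98% of all genes were). All 16 had a positive fold at 7 d, and 15 a positive and 1 a negative fold at 2 d. The summed FPKM of the 16 was 395.7 to 1834 at 7 d, 398.3 to 930.8 at 2 d and 260.9 to 286.1 in sham samples. None of the 16 was at 0 in any sample. The lowest Kcnk6 values of each CVST group were in CVST 7 d replicate 2 and CVST 2 d replicate 5, the samples with the lowest medians of these markers. Their part in the Kcnk6 result was not tested.

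Kcnq1 encodes KvLQT1, the pore of the slow delayed rectifier of heart muscle and of potassium channels of secretory epithelia. It rose at 2 d. At 7 d the samples had 0.209, 0.444, 0.630, 0.837 and 0.524 CPM. At 2 d they had 1.42, 2.77, 1.96, 1.65 and 0.811 CPM, and sham samples had 0.294, 0.787, 0.400 and 0.431 CPM. All 2 d samples lay above all sham samples, by a small margin for CVST 2 d replicate 5, whereas the ranges of 7 d and sham samples overlapped. The log2 fold change was 0.17 ± 0.442 (adjusted p = 0.876) at 7 d and 1.85 ± 0.422 (adjusted p = 0.0309) at 2 d. The difference of 7 d from 2 d was -1.68 ± 0.387 (adjusted p = 0.0363), so the times differed by the test of the difference itself.

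Kcnq1 was a low gene, with 239 counts over all 14 samples, and its calls passed the threshold by a small margin. The call at 2 d was lost without any sham sample and without CVST 2 d replicate 1, 2, 3 or 4 (adjusted p 0.0523 to 0.104), with a fold of 1.60 to 2.18, and held without CVST 2 d replicate 5 (2.03, adjusted p = 0.00686). The difference between the times stayed between -1.90 and -1.44 when 1 sample was left out. Its call was lost without CVST 2 d replicate 1, 2, 3 or 4 or CVST 7 d replicate 1, 2, 3 or 5 (adjusted p 0.0579 to 0.0703) and held without CVST 2 d replicate 5 or CVST 7 d replicate 4. An antisense gene, Kcnq1ot1, shares exon bases with Kcnq1 in GENCODE vM21, and whether the counting used strand is not given in the sources used here, so reads of the pair may not be told apart. Kcnq1ot1 averaged 15.7 ± 2.00 CPM at 7 d, 11.3 ± 2.68 CPM at 2 d and 15.2 ± 0.697 CPM in sham samples. All 5 samples at 2 d lay below every sham sample, as was seen for 3.06% of all genes. Its log2 fold change at 2 d was -0.43 (adjusted p = 0.138). The part of shared reads in the Kcnq1 result was not tested. Of 10 endothelial markers, 2 were called higher at 2 d (20%, Pecam1 and Cdh5) and none at 7 d, where 2.98% and 3.61% of all genes were. The summed FPKM of the 10 was 130.2 to 191.5 at 7 d, 161.7 to 259.0 at 2 d and 127.6 to 169.3 in sham samples. None of the 10 was at 0 in any sample, and 9 had a positive and 1 a negative fold at 2 d. Other lists also had markers called higher. For 16 microglia and macrophage markers the share was 25% at 2 d and 87.5% at 7 d. For 11 astrocyte markers it was 27.3% at both times. The part of these markers in the Kcnq1 result was not tested.

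Kcng1 encodes Kv6.1, an electrically silent subunit that forms no channel alone and joins Kv2 subunits such as Kcnb2 to shift their gating. It fell at both times. At 7 d the samples had 12.1, 21.9, 27.4, 12.0 and 24.1 CPM. At 2 d they had 18.2, 21, 15.3, 15.3 and 29.4 CPM, and sham samples had 25.1, 48.0, 57.3 and 67.8 CPM. Sham replicate 1 lay within the range of both CVST groups, and the other sham samples lay above every CVST sample. The log2 fold change was -1.35 ± 0.303 (adjusted p = 0.0243) at 7 d and -1.32 ± 0.302 (adjusted p = 0.0309) at 2 d, with -0.02 ± 0.290 between 7 d and 2 d. The call at 7 d was lost without sham replicate 2 (adjusted p = 0.0641), 3 (0.0846) or 4 (0.0893) or CVST 7 d replicate 4 (0.0643). The call at 2 d was lost without sham replicate 2, 3 or 4 or CVST 2 d replicate 1, 2, 3 or 4 (adjusted p 0.0646 to 0.0985), with a fold of -1.34 to -1.13, and held without CVST 2 d replicate 5 (-1.50, adjusted p = 0.0088).

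**Figure D3:**
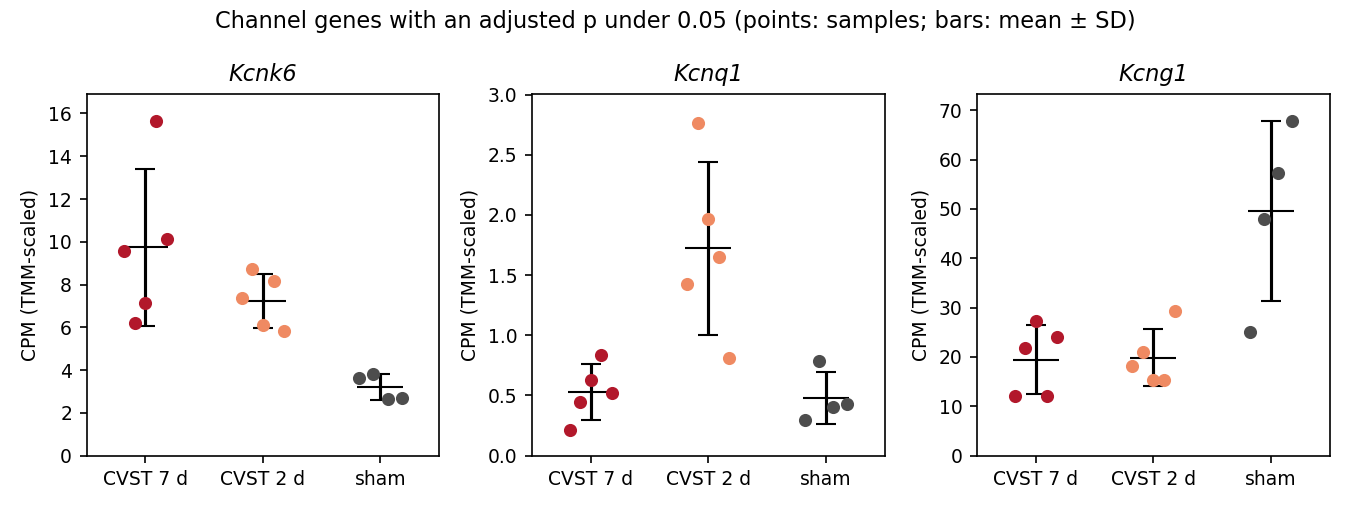
Kcnk6, Kcnq1 and Kcng1 in every sample (points) with group mean and SD (bars), in TMM-scaled CPM (y axis), for CVST 7 d, CVST 2 d and sham (x axis). Kcnk6 lies above all 4 sham samples in all 10 CVST samples, Kcnq1 is high at 2 d, and Kcng1 is below sham replicates 2, 3 and 4 in every CVST sample.

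Kcnb2, a pore that Kcng1 can join, was not called, with log2 folds of -0.13 ± 0.177 at 7 d and -0.34 ± 0.177 at 2 d (adjusted p = 0.743 and 0.272). Of the 10 silent subunit genes, 9 were tested, and 7 had a negative fold at 7 d and 6 at 2 d, with Kcng1 alone called. Kcnf1, another silent subunit, had 73.5 to 135 CPM at 7 d, 107 to 175 CPM at 2 d and 145 to 187 CPM in sham samples. All 7 d samples lay below all sham samples, yet the log2 fold of -0.57 ± 0.170 missed the threshold (adjusted p = 0.0739). Of 18 alternative fits, 3 called Kcnf1 lower at 7 d. They were DESeq2, limma voom with sample weights, and edgeR without CVST 2 d replicate 5 and CVST 7 d replicate 2. These fits called 2.03%, 1.71% and 1.09% of all genes lower. Kcnv1, a silent subunit expressed in cortex, had log2 folds of -0.35 ± 0.183 at 7 d and -0.41 ± 0.183 at 2 d (adjusted p = 0.317 and 0.215).

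The other delayed rectifiers and A-type channels of neurons gave no call. The Kv1 genes Kcna1 and Kcna2 dampen axonal excitability. Kcna1 had log2 folds of -0.01 ± 0.223 at 7 d and 0.02 ± 0.222 at 2 d, and Kcna2 of -0.11 ± 0.189 at 7 d and -0.03 ± 0.189 at 2 d. Kcna3, the Kv1 channel best known from lymphocytes and microglia, had 3.07, 4.44, 3.55, 3.29 and 2.41 CPM at 7 d, 1.31, 3.42, 1.44, 5.56 and 2.66 CPM at 2 d, and 4.24, 5.39, 3.4 and 2.64 CPM in sham samples. Those ranges overlapped, with log2 folds of -0.22 ± 0.365 at 7 d and -0.44 ± 0.365 at 2 d. The channels of fast-spiking neurons Kcnc1 and Kcnc2 had log2 folds of -0.08 ± 0.123 and -0.06 ± 0.164 at 7 d and -0.12 ± 0.123 and -0.25 ± 0.163 at 2 d. Their relative Kcnc4 lay below sham in every 2 d sample (57.5 to 70.9 CPM, against 72.7 to 97.1 CPM in sham samples), but its log2 fold of -0.41 ± 0.162 did not pass (adjusted p = 0.157). Kcnd2, an A-type pore of dendrites, had log2 folds of -0.14 ± 0.118 at 7 d and -0.38 ± 0.118 at 2 d (adjusted p = 0.559 and 0.0841).

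Kcnq3, a subunit of the M-current that restrains repetitive firing, was not called, with log2 folds of -0.12 ± 0.138 at 7 d and -0.37 ± 0.137 at 2 d (adjusted p = 0.688 and 0.139). Kcnh1, an ether-a-go-go channel of neurons, had log2 folds of 0.00 ± 0.191 at 7 d and 0.34 ± 0.192 at 2 d (adjusted p = 0.995 and 0.318).

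Among inward rectifiers edgeR over all samples called none of the 11 genes tested at either time. Kcnj12 (Kir2.2), a strong rectifier that helps hold the resting potential, had 11.6, 8.49, 11.3, 6.70 and 10.4 CPM at 7 d and 10.8, 10.2, 11, 9.74 and 8.68 CPM at 2 d, against 15.4, 14.5, 14 and 11.6 CPM in sham samples. Every CVST sample lay below every sham sample, with log2 folds of -0.52 ± 0.152 (adjusted p = 0.0697) at 7 d and -0.46 ± 0.152 (adjusted p = 0.101) at 2 d. Of 18 alternative fits at each time, only that with another tool, DESeq2, called Kcnj12 lower. DESeq2 called 2.03% of all genes lower at 7 d and 2.69% at 2 d. Kcnj4 (Kir2.3) lay below all sham samples in every 7 d sample (82.7 to 127 CPM, against 128 to 159 CPM) with a log2 fold of -0.40 ± 0.185 (adjusted p = 0.255). Non-overlap in the lower direction was seen for 3 of 93 channel genes at 7 d (Kcnf1, Kcnj4 and Kcnj12), where it was seen for 3.87% of all genes. At 2 d it was seen for 2 (Kcnc4 and Kcnj12), where it was seen for 3.06% of all genes. In the higher direction it was seen for Kcnk6 alone at 7 d and for Kcnk6 and Kcnq1 at 2 d, where the shares of all genes were 5.80% and 5.65%. Between 7 d and 2 d no tested channel gene was without overlap, where 2.28% of all genes were so in the higher and 2.13% in the lower direction. Kcnj2 (Kir2.1), which microglia also use, had log2 folds of 0.13 ± 0.211 at 7 d and -0.20 ± 0.211 at 2 d. The G-protein-gated channels Kcnj3, Kcnj6 and Kcnj9, which mediate slow inhibition, had log2 folds of -0.01, 0.02 and -0.16 at 7 d and -0.23, 0.12 and -0.31 at 2 d. Kcnj16, which pairs with the astrocyte channel Kcnj10, had log2 folds of -0.16 ± 0.141 at 7 d and 0.07 ± 0.140 at 2 d.

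Of the 10 K2P genes tested, Kcnk6 was the only one called. Kcnk1 (TWIK-1), its close relative, had log2 folds of -0.26 ± 0.104 at 7 d and -0.25 ± 0.104 at 2 d (adjusted p = 0.182 and 0.181). Kcnk2 (TREK-1), which stretch, acid and fatty acids open, had 48.8, 52.5, 54.1, 47.4 and 56.0 CPM at 7 d, 44.6, 39.1, 54.6, 48.6 and 58.5 CPM at 2 d, and 45.6, 80.1, 55.8 and 79.3 CPM in sham samples. Sham replicates 2 and 4 stood above all other samples, and the log2 folds were -0.33 ± 0.155 at 7 d and -0.41 ± 0.155 at 2 d (adjusted p = 0.251 and 0.143). Those 2 sham samples also had the highest striatal markers of their group (summed FPKM 827.2 and 961.8). CVST 7 d replicate 5 and CVST 2 d replicate 5 had sums of 825.1 and 736.5. Their Kcnk2 values, 56.0 and 58.5 CPM, were the highest of their groups but below those of the 2 sham samples. The part of these markers was not tested. Kcnk13 (THIK-1), the resting potassium channel of microglia, had 5.86, 5.89, 4.53, 8.54 and 8.60 CPM at 7 d, 12.7, 7.64, 6.02, 14.1 and 6.66 CPM at 2 d, and 5.82, 6.0, 6.61 and 7.17 CPM in sham samples. The ranges overlapped at both times, with log2 folds of 0.06 ± 0.263 (adjusted p = 0.922) at 7 d and 0.56 ± 0.263 (adjusted p = 0.233) at 2 d. Of 16 microglia and macrophage markers, 14 were called higher at 7 d (87.5%, where 3.61% of all genes were) and 4 at 2 d (25%, where 2.98% were). At 2 d Kcnk13 was highest in replicates 4 and 1. These samples also had the highest summed choroid plexus markers of their group (616.9 and 552.1 FPKM) and hippocampus and thalamus markers (134.1 and 112.8 FPKM). The part of these 3 lists in the Kcnk13 values was not tested.

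None of the 8 KCa/KNa genes was called. Kcnn4 (KCa3.1), the calcium-activated channel of microglia, lymphocytes and endothelium, had 0.418, 0.190, 0.630, 0.391 and 3.51 CPM at 7 d, 0.767, 0.984, 0.589, 0.991 and 0.174 CPM at 2 d, and 0.294, 0.121, 0.250 and 0.216 CPM in sham samples. CVST 7 d replicate 5 stood far above the rest, and 4 of the 5 samples at 2 d lay above all sham samples. Its log2 fold at 7 d, 2.21 ± 0.807 (adjusted p = 0.141), was the largest of the 93, and that at 2 d was 1.64 ± 0.818 (adjusted p = 0.259), both with wide errors at this depth. Kcnma1, the BK channel that repolarises spikes, had log2 folds of -0.12 ± 0.126 at 7 d and -0.23 ± 0.126 at 2 d. Kcnn2, a channel of the medium afterhyperpolarisation, had log2 folds of 0.21 ± 0.156 at 7 d and -0.17 ± 0.155 at 2 d. Kcnt1 had log2 folds of 0.14 ± 0.141 at 7 d and 0.26 ± 0.141 at 2 d.

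None of the 12 auxiliary subunit genes tested was called. Kcnip2 and Kcnip3 (calsenilin), calcium sensors that bind A-type pores, lay on opposite sides of sham at 2 d. Kcnip2 averaged 96.0 ± 14 CPM at 7 d, 90.2 ± 31.1 CPM at 2 d and 138 ± 25.8 CPM in sham samples, with log2 folds of -0.52 ± 0.206 (adjusted p = 0.169) at 7 d and -0.62 ± 0.206 (adjusted p = 0.104) at 2 d. Kcnip3 averaged 108 ± 24.7 CPM at 7 d, 159 ± 39.9 CPM at 2 d and 106 ± 7.53 CPM in sham samples, with log2 folds of 0.03 ± 0.191 (adjusted p = 0.961) at 7 d and 0.58 ± 0.193 (adjusted p = 0.103) at 2 d. Kcnip4 had log2 folds of -0.07 ± 0.132 at 7 d and -0.25 ± 0.132 at 2 d, and the Kv1 beta subunit Kcnab1 of -0.34 ± 0.179 at 7 d and -0.22 ± 0.179 at 2 d. Kcne2, a beta subunit also made by choroid plexus epithelium, had 0.209, 0.190, 0.401, 1.67 and 0.157 CPM at 7 d, 1.53, 0.141, 0.524, 2.37 and 0.116 CPM at 2 d, and 0.412, 1.76, 0.2 and 6.14 CPM in sham samples. In each group it was highest in replicate 4, the sample with the highest summed choroid plexus markers of its group, whose part was not tested. Its log2 folds were -1.98 ± 1.01 at 7 d and -1.18 ± 0.967 at 2 d (adjusted p = 0.301 and 0.512). Kcne3 was below the filter on low counts, at 0.139 to 0.524 CPM at 7 d, 0.165 to 0.797 CPM at 2 d and 0 to 0.250 CPM in sham samples.

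The sodium channels were not called at either time. Scn1a, the main channel of fast-spiking interneurons, had log2 folds of 0.02 ± 0.207 at 7 d and -0.23 ± 0.207 at 2 d. Scn2a, of excitatory neurons, had 336, 328, 328, 246 and 225 CPM at 7 d, 205, 229, 242, 285 and 337 CPM at 2 d, and 311, 353, 328 and 283 CPM in sham samples. The ranges overlapped, with log2 folds of -0.12 ± 0.152 (adjusted p = 0.707) at 7 d and -0.30 ± 0.152 (adjusted p = 0.273) at 2 d. Scn8a, of nodes and axon initial segments, had log2 folds of -0.08 ± 0.132 at 7 d and -0.13 ± 0.132 at 2 d. Scn3a, a channel of immature neurons, had log2 folds of -0.19 ± 0.193 at 7 d and -0.37 ± 0.192 at 2 d, and Scn7a, a sodium-sensing channel, of 0.11 ± 0.438 at 7 d and 0.02 ± 0.437 at 2 d.

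The calcium channels gave no call either. The P/Q-, N- and R-type pores of nerve terminals, Cacna1a, Cacna1b and Cacna1e, had log2 folds of -0.07 ± 0.158, -0.08 ± 0.119 and -0.20 ± 0.174 at 7 d and -0.04 ± 0.158, -0.12 ± 0.118 and -0.49 ± 0.174 at 2 d. The L-type pores Cacna1c and Cacna1d had log2 folds of -0.21 ± 0.169 and 0.12 ± 0.10 at 7 d and -0.20 ± 0.169 and -0.12 ± 0.10 at 2 d. T-type pores support burst firing. Among them, Cacna1g had 77.9, 74.3, 63.0, 59.8 and 56.6 CPM at 7 d, 139, 89.8, 115, 173 and 52.5 CPM at 2 d, and 74.6, 71.5, 69.2 and 64.9 CPM in sham samples. At 2 d 4 of 5 samples lay above all sham samples and CVST 2 d replicate 5 below them, with log2 folds of -0.08 ± 0.240 at 7 d and 0.70 ± 0.242 at 2 d (adjusted p = 0.894 and 0.116). Cacna1g was highest in CVST 2 d replicates 4 and 1. Their summed FPKM of hippocampus and thalamus markers was also the highest of their group (134.1 and 112.8, against 101.5 in replicate 5). The part of these markers in the Cacna1g values was not tested. Cacna1h had log2 folds of -0.25 ± 0.258 at 7 d and -0.38 ± 0.258 at 2 d.

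The number of channel genes called at 2 d moved with single samples and with the tool. Without CVST 2 d replicate 5, 4 were called higher (4.30%) and 9 lower (9.68%), where 7.08% of all genes were called higher and 4.59% lower. The 4 higher were Kcnk6, Kcnq1, Cacna1g (0.88, adjusted p = 0.00548) and Kcnip3 (0.70, adjusted p = 0.0198). Among the 9 lower were Kcng1, the A-type pore Kcnd2 (-0.48, adjusted p = 0.0094) and its partner Kcnip2 (-0.82, adjusted p = 0.00951), the small-conductance calcium-activated channel Kcnn3 (-1.10, adjusted p = 0.0155), Kcnj4 (-0.53, adjusted p = 0.0198), the silent subunit Kcnf1 (-0.57, adjusted p = 0.0244), Cacna1e (-0.61, adjusted p = 0.0253) and the inward rectifier Kcnj14 (-1.27, adjusted p = 0.0383). With that sample included, edgeR called Kcng1 alone of these 9. Without CVST 2 d replicate 2 or sham replicate 2, 3 or 4, edgeR called no channel gene at 2 d, where 1.11%, 0.453%, 0.349% and 0.489% of all genes were called higher and 0.363%, 0.11%, 0.0931% and 0.14% lower, in that order. At an unadjusted p under 0.05 those 4 fits had 4 to 5 channel genes higher and 8 to 18 lower. The shares of all genes at that level were not computed for these fits. In the fit over all samples they were 12.3% higher and 9.38% lower. The shares may differ in these 4 fits, so their counts show neither an excess nor a lack of channel genes. With every sample included, other tools also called more channel genes at 2 d than edgeR: DESeq2 called 4 higher and 5 lower, where 6.34% and 2.69% of all genes were called, and limma voom with sample weights called 4 higher and 12 lower, where 8.39% and 7.07% were called. Of the 9 genes shown in the plot of calls without CVST 2 d replicate 5, DESeq2 over all samples called 5 and voom with sample weights all 9. With that sample included, edgeR with a replicate block called 1 of the 9 (Kcnn3), and edgeR on only the 2 groups compared called 0. Without CVST 2 d replicate 5 the difference of 7 d from 2 d gave 1 channel gene higher (Kcnd2) and 4 lower (Cacna1g, Kcnip3, Kcnk12 and Kcnq1), where 3.58% and 4.18% of all genes were called. Without CVST 7 d replicate 2 the calls at 7 d against sham were Kcnk6 and Kcng1, as with it, where 5.29% and 0.848% of all genes were called.

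**Figure D4:**
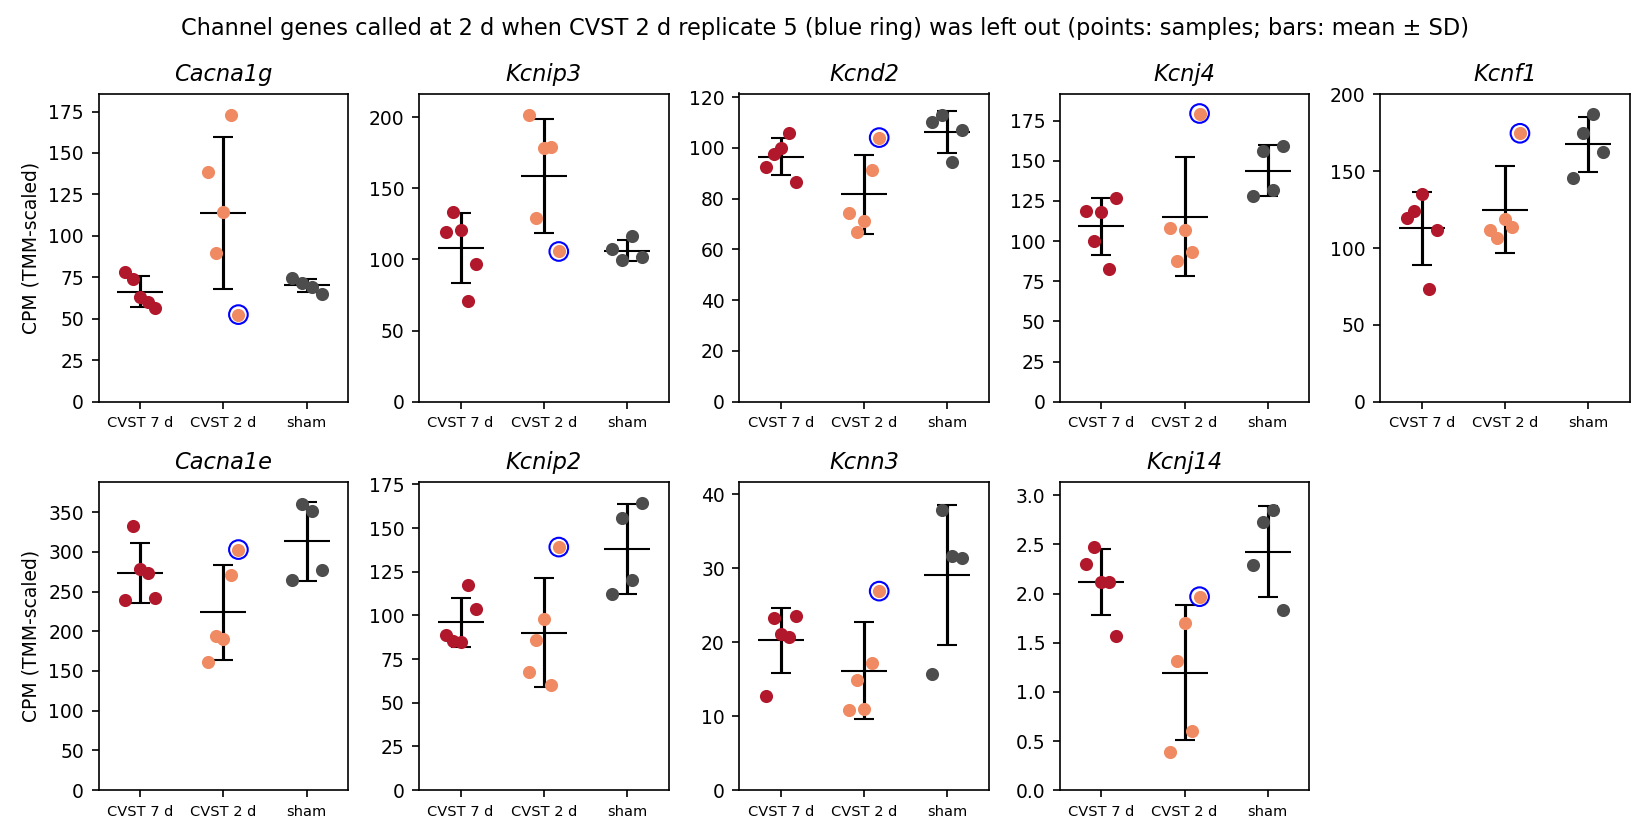
Channel genes (9 shown) called at 2 d against sham by edgeR when CVST 2 d replicate 5 (blue ring) was left out and not over all samples, in TMM-scaled CPM (y axis) for CVST 7 d, CVST 2 d and sham (x axis); points are samples, bars mean and SD. The ringed sample lies within the sham range for 7 genes, above it for Kcnj4 and below it for Cacna1g.

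Genes that work with these channels gave 3 calls at 7 d and 1 at 2 d. Of 31 tested accessory subunits, HCN channels and their partners, 1 was called lower at 7 d and 1 at 2 d (3.23% each, where 0.833% and 0.969% of all genes were called lower), with medians of -0.21 and -0.18. At 7 d it was Cacnb1, a beta subunit of calcium channels (-0.36 ± 0.0841, adjusted p = 0.027), and at 2 d Fgf13, an intracellular partner of sodium channels (-0.60 ± 0.128, adjusted p = 0.0235). At an unadjusted p under 0.05, 6 of the 31 lay lower at 7 d and 8 at 2 d, where 7.91% and 9.38% of all genes did. Of 15 genes of the axon initial segment and node of Ranvier, where Nav and Kv channels cluster, Trim46 was called lower at 7 d (-0.27 ± 0.0696, adjusted p = 0.0417; 6.67%, where 0.833% of all genes were called lower) and none at 2 d, with medians of -0.08 and -0.19. At an unadjusted p under 0.05, 1 of the 15 lay lower at 7 d and 5 at 2 d, where 7.91% and 9.38% of all genes did. Of 13 genes that maintain the potassium and chloride gradients, Aqp4, the water channel of astrocyte endfeet, was called higher at 7 d (0.90 ± 0.221, adjusted p = 0.0343; 7.69%, where 3.61% of all genes were called higher) and none at 2 d, with medians of 0.11 and -0.04. None of 12 general neuron markers was called at either time, with medians of -0.10 at 7 d and 0.05 at 2 d. The 12 excitatory markers also gave no call, with medians of 0.01 at 7 d and -0.11 at 2 d. Nor did the 12 interneuron markers, with medians of -0.19 at 7 d and -0.17 at 2 d. Of these 12 interneuron markers, 10 had a negative fold at 7 d and 7 at 2 d.

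**Figure D5:**
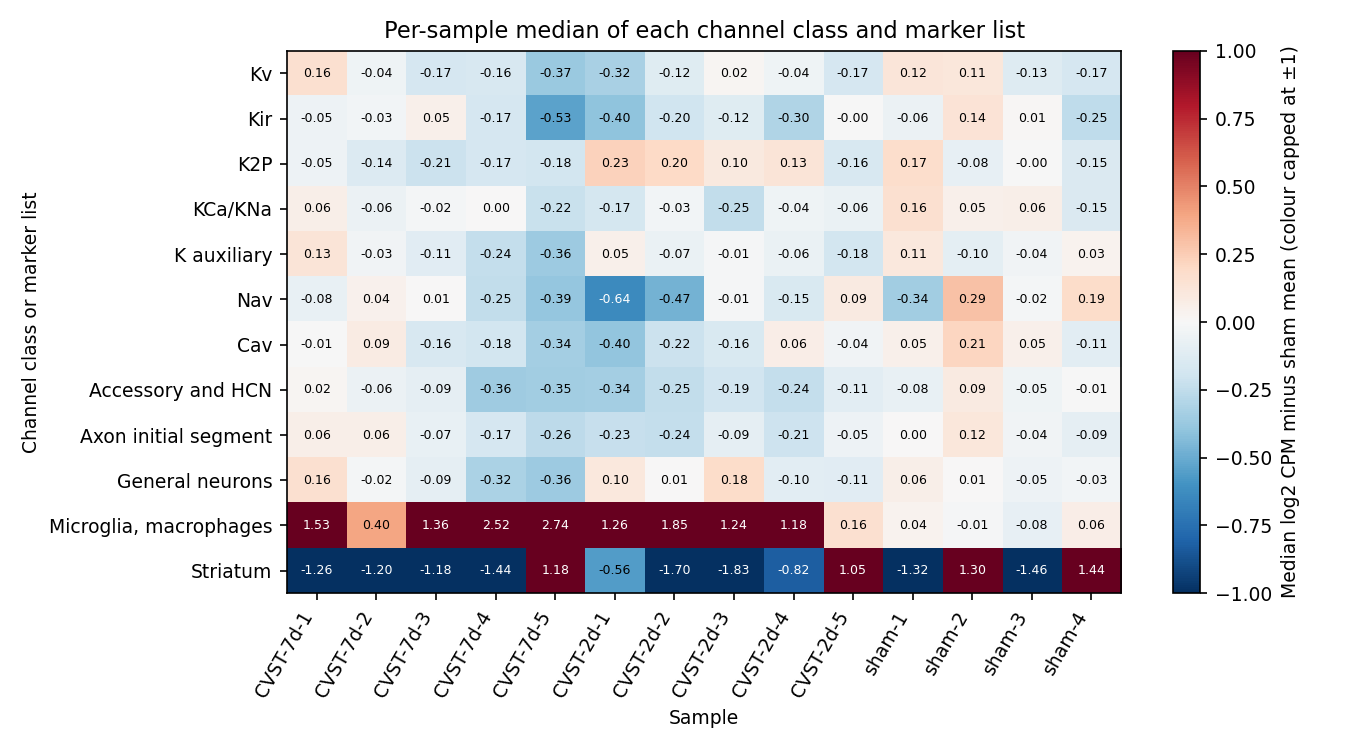
Median over genes of log2 CPM minus the sham mean for each channel class and 5 other lists (rows) in each sample (columns: CVST 7 d, then CVST 2 d, then sham); numbers are the medians and colour is capped at ±1. Channel classes stay between -0.64 and 0.29, while the microglia and macrophage row reaches 2.74 in CVST 7 d replicate 5 and the striatum row is high in 4 samples of all 3 groups.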

How the data were processed

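RNA was taken from cortical tissue in 14 samples (5 at 7 d, 5 at 2 d, 4 sham). Per the labels' protocols, total RNA was extracted with Trizol and libraries were made with a NEBNext Ultra RNA kit. Per the submitters' processing notes, fastp, HISAT2, DESeq2 1.16.1 and the build mm39 were used, with no role stated, and the sources used here name no counting tool or strand setting. The authors deposited a table of raw counts and FPKM per gene for each sample. It has 55894 entries, of which 535 carry no Ensembl gene, hold 0.203% to 0.278% of counts and were left out. The total was 14.7 to 20.8 M counts (M, mega) per sample, which limits precision for low genes such as Kcnq1. Of the 110 channel entries, 63 are merged assembled loci that carry an Ensembl gene.

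The counts were tested with edgeR 4.0.16 (R 4.3.3): TMM factors (0.962 to 1.04), filterByExpr (16918 genes kept), 1 quasi-likelihood fit over all samples with a mean per group, and Benjamini-Hochberg adjustment over all genes tested, with a call at 0.05. Fold changes are on the log2 scale. The log2 CPM values behind the per-sample medians used a prior count of 2. CPM is TMM-scaled, and FPKM served for levels between genes. Alternatives used DESeq2 1.42.0, limma 3.58.1 (voom), other scalings and filters, a replicate block and leaving out samples. Scripts were tested on simulated data. No 2 replicates agreed within sampling noise (lowest chi-square per degree of freedom 8.27). Sequences were read with Biopython 1.88 from GENCODE vM21 transcripts on GRCm38. Kcnj8 and Kcnj10 were left out by the membership rule.

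The members and lists were chosen with earlier results of these data known. Genes were named by rule: up to 10 called higher and 10 called lower per comparison, a panel of channels, and the most abundant member of each class. Some channel genes are counted but not reported by name here. Kcnb2, Kcnc4, Kcne2, Kcnf1, Kcnj3, Kcnj6, Kcnj9, Kcnj12, Kcnj14, Kcnip2, Kcnip3, Kcnk12, Kcnn3, Kcnv1 and the genes in the closing section outside that rule were chosen after their values were seen.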

Additional observations from a re-analysis of the deposited data

Results flagged for a closer look

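In 26 of 273 groups of 4 or 5 samples (9.52%), 1 sample stood far from the others of its group. The groups share samples, and many of the genes were chosen after their values were seen, so no chance rate is given. In CVST 7 d these were Kcne2 in replicate 4 (1.67 CPM, the sample with the highest choroid plexus markers of its group), Kcne4 in replicate 5 (3.04 CPM), Kcnk3 in replicate 1 (24.2 CPM), Kcnn3 in replicate 1 (12.8 CPM, lower than the others), Kcnn4 in replicate 5 (3.51 CPM), Kcnq5 in replicate 1 (146.8 CPM), Scn3a in replicate 2 (57.1 CPM) and Kcnj15 in replicate 5 (11.7 CPM).

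In CVST 2 d, 7 of the 11 fell on replicate 5: Kcna5 (9.96 CPM), Kcnc4 (70.9 CPM), Kcnf1 (174.7 CPM), Kcnip4 (73.2 CPM), Kcnj4 (179.5 CPM) and Scn10a (4.69 CPM) were high in it, and Kcnk3 (13.6 CPM) was low. The others were Kcnb2 in replicate 4 (27.5 CPM), Kcne4 in replicate 2 (1.78 CPM), Kcnj11 in replicate 3 (48.3 CPM) and, on the low side, Kcnq3 in replicate 1 (89.7 CPM).

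In sham samples they were Kcnh6 in replicate 2 (71.8 CPM), Kcnk10 in replicate 3 (9.66 CPM), Kcnk3 in replicate 1 (24.5 CPM) and Kcnj15 in replicate 1 (0.529 CPM), and on the low side Kcnj6 in replicate 4 (15.6 CPM), Kcnma1 in replicate 4 (246.7 CPM) and Kcns2 in replicate 3 (25.7 CPM).

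Kcnq1 had log2 folds against sham of 0.17 at 7 d and 1.85 at 2 d. The test of the difference between the times gave -1.68 (edgeR adjusted p = 0.0363).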

How the results depend on the processing

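At 2 d against sham, DESeq2 and limma voom each called 4 channel genes higher (6.34% and 8.39% of all genes) and called 5 and 12 lower (2.69% and 7.07% of all genes). The replicate block and a fit of only the 2 groups each called 2 lower (0.763% and 0.731% of all genes). Leaving out CVST 2 d replicate 5 and CVST 7 d replicate 2 together gave 4 higher and 10 lower (8.17% and 4.61% of all genes). Leaving out 1 sample gave 0 to 4 higher and 0 to 9 lower (0.349% to 7.08% and 0.0931% to 4.59% of all genes). At 7 d against sham, DESeq2 and voom each called 3 lower (2.03% and 1.71% of all genes). Leaving out both samples gave 2 lower (1.09% of all genes), and leaving out 1 sample gave 0 to 1 lower (0.105% to 0.848%). At 7 d against 2 d, voom called 1 higher and 2 lower (3.46% and 3.85% of all genes) and DESeq2 3 lower (3.75%). The block and the fit of 2 groups called 0 lower (0.201% and 0.159% of all genes), and leaving out both samples 3 lower (2.47%). Leaving out 1 sample gave 0 to 1 higher and 0 to 4 lower (0.581% to 3.58% and 0.445% to 4.18% of all genes).

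No pairing by replicate number was seen, though a weak shared effect could be missed by this check. Correlations of same-numbered samples were -0.438 to 0.28 over 13 pairs, 2 of them over 0.1, and 2 of 14 samples correlated best with their own number. With the replicate block the difference of Kcnq1 between the times was -1.63 (edgeR adjusted p = 0.0645).

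Of the 267 log2 folds carried through the alternatives, 89 turned sign in at least 1 of them. In 20 fits, over 15 uncalled folds, the turn was larger than the fold's standard error. With voom these were Kcnk10 at 2 d (-0.209) and, at 7 d against 2 d, Kcnn4 (-0.311), Kcnab1 (0.057), Kcnd3 (0.192) and Kcnf1 (0.0297). With the replicate block it was Kcnn4 at 7 d against 2 d (-0.146). Without CVST 2 d replicate 5 and CVST 7 d replicate 2 together they were Scn7a at 7 d (-0.36) and, at 7 d against 2 d, Kcnj4 (0.18). Leaving out 1 sample gave, at 2 d, -0.215 to 0.127 for Kcnk10, -0.149 to 0.147 for Kcnmb4 and -1.87 to 0.263 for Kcne2. At 7 d it gave -0.367 to 0.335 for Scn7a, -0.509 to 0.00883 for Kcnk4, -0.252 to 0.0415 for Kcnmb4 and -0.0954 to 0.276 for Kcnq5. At 7 d against 2 d it gave -0.776 to 0.834 for Kcnn4, -0.159 to 0.143 for Kcnj4, -0.127 to 0.209 for Kcnk10, -0.00079 to 0.285 for Kcnq5 and -0.395 to 0.299 for Scn7a. The cause was not tested.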

Other observations

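Several low channel genes were high in single samples. Kcnj15, below the filter on low counts, had 11.7 CPM in CVST 7 d replicate 5 and at most 0.75 CPM in every other sample. Scn10a, a sodium channel known from sensory neurons and also below the filter, had 4.69 CPM in CVST 2 d replicate 5 and 1.51 CPM in sham replicate 4.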
